A study of Mus musculus with 4 samples.

Results

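Messenger RNA was followed for 10 genes of Fc receptors and phagocytes, namely Fcgr1, Fcgr2b, Fcgr3, Fcer1g, Ptprc, Cd68, Emr1, Lyz2, Cybb and Cd14. They were taken by symbol from a table of 24637 genes, and each symbol had 1 row. The table holds 4 libraries of polyA RNA from mouse embryonic stem cell (ESC) lines that were differentiated towards cardiomyocytes, 2 labelled WT (Taf4+/+) and 2 labelled Taf4a-/-. Taf4a encodes a subunit of TFIID, the general factor that RNA polymerase II uses to start transcription, and the null allele lacks exons 11 and 12. The study derived the ESC lines from blastocysts of crossed Taf4a+/- mice and used 2 independent lines of each genotype, and the replicate numbers are those of the labels. Cells of both genotypes were kept in serum with LIF on inactivated mouse embryonic fibroblast feeders, grown as embryoid bodies (EBs) for 5 days in medium with 20% FCS, and cultured for 9 more days on gelatin. The labels say day 9 without naming its start, which was taken here as the plating on gelatin. The comparison addresses how these genes were expressed in a cardiac differentiation of ESCs with and without Taf4a.

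Fc receptors bind the constant part of antibodies and let phagocytes take up what the antibodies coat. The activating receptors for IgG, such as the products of Fcgr1 and Fcgr3, signal through the common gamma chain encoded by Fcer1g, whose ITAM motif recruits the kinase Syk, whereas the product of Fcgr2b carries an inhibitory ITIM motif of its own. Macrophages also express the leukocyte phosphatase CD45 (Ptprc), the surface proteins F4/80 (Emr1) and CD14, lysosomal CD68 and lysozyme M (Lyz2), and the catalytic subunit of the phagocyte NADPH oxidase (Cybb), and EBs can form macrophages beside heart muscle.

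Between 21732746 and 27733034 reads per library were counted on genes, and 1 read was worth 0.877 to 1.11 normalized counts, the unit of all levels below (reads divided by 1 size factor per library). A level of 3 reads, 2.63 to 3.32 normalized counts, was taken as the limit of detection, which covers counting error only. Taf4a itself had 889 and 678 normalized counts in WT and 1722 and 1799 in the libraries with the Taf4a-/- label, a log2 fold change of 1.18 (SE 0.16, adjusted p = 0.00569 from limma). Its count was thus not lower in the libraries with the Taf4a-/- label, and a count over the whole gene does not separate exons 11 and 12, so that each direction below rests on the labels. All 8 cardiomyocyte markers were lower in these libraries (adjusted p under 0.05 in limma), beside 17.3% of all genes tested. Of 8 pluripotency markers 7 were higher, beside 11.3% of all genes tested.

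Each of the 10 genes had a lower level under the Taf4a-/- label than under the WT label. Their normalized counts summed to 6152 and 8516 in the WT libraries and to 185 and 196 in the libraries with the Taf4a-/- label, which was 2.60% of the WT sum. Each of the 10 had an adjusted p-value under 0.05 in limma, where 17.3% of the 16926 genes tested were lower. For none of the 10 did the groups overlap, and both libraries with the Taf4a-/- label were below both WT libraries for 36.6% of all genes tested. The median log2 fold change of the 10 was -6.19, beside -0.01 for all genes tested, and 8 of the 10 were at least 8-fold lower, as were 3.08% of all genes. All 10 passed the filter on low values, set at 10 for the mean level over all libraries, but 8 of them did so through their WT level alone, so these counts describe the genes and are not a test of the group. Without WT replicate 2, the call was lost for Fcgr2b, Fcer1g and Emr1, and 7 of the 10 were lower beside 7.22% of all genes. In bulk RNA of this kind, fewer cells of a type and less RNA per cell cannot be told apart.

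**Figure D1:**
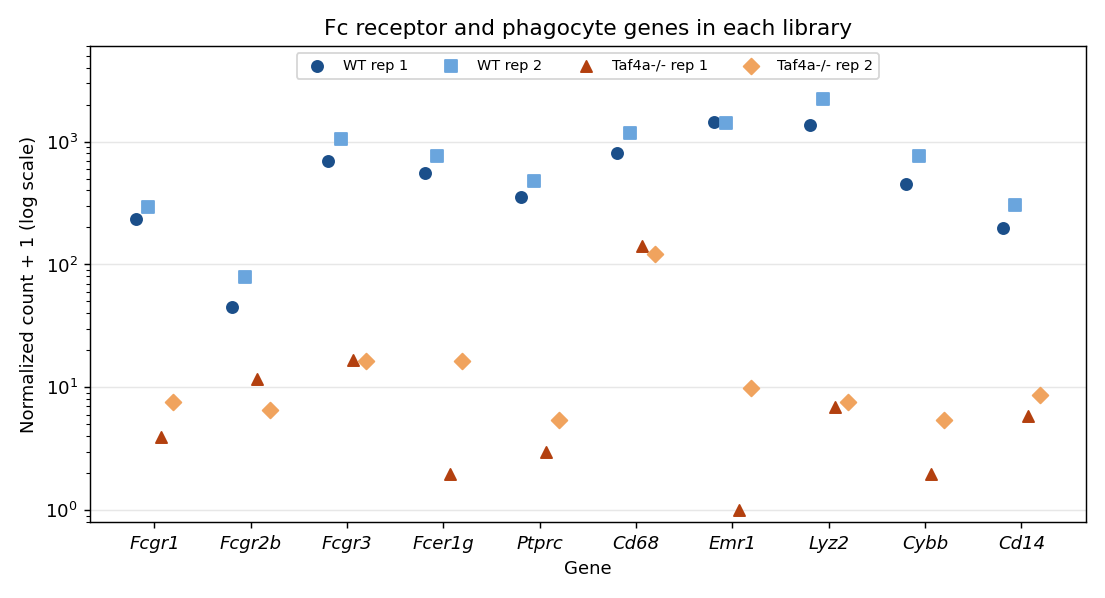
Normalized count + 1 (log axis) of each of the 10 genes in the 4 libraries; each point is 1 library. For every gene both WT points lie above both Taf4a-/- points, and Cd68 stays highest in Taf4a-/-, at 141 and 121 normalized counts.

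Among the 3 IgG receptor genes of the set, Fcgr3, which encodes an activating receptor of low affinity, was the highest per kilobase of exons. It had 698 and 1043 normalized counts in WT (replicate 1 first, as throughout) and 15.7 and 15.5 in the libraries with the Taf4a-/- label. The libraries of the mutant label were nearly equal, and the log2 fold change was -5.69 (SE 0.29, adjusted p = 0.000556 from limma). Fcgr1, whose product is the activating receptor of high affinity, had 233 and 292 normalized counts in WT and 2.94 and 6.64 in the libraries with the Taf4a-/- label, or 3 and 6 reads. The log2 fold change of Fcgr1 was -5.58 (SE 0.44, adjusted p = 0.00132 from limma).

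The inhibitory receptor gene Fcgr2b stood apart from these. It was low in WT as well, with 43.8 and 77.9 normalized counts, and had 10.8 and 5.53 in the libraries with the Taf4a-/- label. Its log2 fold change of -2.76 (SE 0.51, adjusted p = 0.0138 from limma) was near that of Cd68 (-2.89), and which of these was smaller changed when WT replicate 1 (-3.17 against -3.15) or replicate 1 of the Taf4a-/- label (-3.19 against -3.001) was left out. Without WT replicate 2 it was -2.35 and no longer passed (adjusted p = 0.0771). In pooled reads Fcgr2b kept 14.0% of its WT level (95% counting interval 7.75 to 23.6), whereas Fcgr3 kept 1.82% (1.22 to 2.61) and Fcgr1 1.797% (0.817 to 3.44). Fcgr2b and Fcgr3 share sequence, since 10.1% of the 50-base stretches of Fcgr2b transcripts also occur in Fcgr3 transcripts and 10.2% of those of Fcgr3 in Fcgr2b, so reads from these stretches cannot be assigned to either gene with certainty.

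Fcer1g, the signalling chain that the activating receptors share, had 551 and 764 normalized counts in WT. In the libraries with the Taf4a-/- label it had 0.979 in replicate 1, which is 1 read, and 15.5 in replicate 2. The log2 fold change was -6.83 with a wide error (SE 0.93, adjusted p = 0.00552 from limma), and it moved to -5.30 without the replicate 1 and to -8.36 without the replicate 2 of that label. Without WT replicate 2 it was -6.60 and did not pass (adjusted p = 0.0667). The groups stayed far apart, as the higher of the libraries with the Taf4a-/- label was at 15.5 and the lower WT library at 551.

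Ptprc encodes CD45, the transmembrane tyrosine phosphatase found on nearly all white blood cells. It had 356 and 481 normalized counts in WT and 1.96 and 4.42 in the libraries with the Taf4a-/- label, which are 2 and 4 reads. The log2 fold change was -6.69 (SE 0.43, adjusted p = 0.000981 from limma), and 0.754% of the WT level was left (0.276 to 1.65).

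Emr1, which encodes the macrophage antigen F4/80, kept the smallest percent of its WT level, though its counting interval overlapped those of Lyz2, Cybb and Ptprc. It had 1448 and 1403 normalized counts in WT, the closest agreement between the WT libraries among the 10 genes. No read of Emr1 was counted in the library with the label Taf4a-/- replicate 1, which allows up to 2.94 normalized counts, and replicate 2 had 8.85. Its log2 fold change of -8.83 (SE 0.98, adjusted p = 0.00328 from limma) ranked 6 among the falls of all genes tested. Leaving out replicate 1 of that label gave -7.18 and leaving out replicate 2 gave -10.48, while without WT replicate 2 it was -8.85 with an adjusted p of 0.0513. Pooled over libraries, 0.291% of the WT level was left (0.126 to 0.574).

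Cd14, whose product is a lipid-anchored co-receptor for lipopolysaccharide, had 196 and 301 normalized counts in WT and 4.89 and 7.74 in the libraries with the Taf4a-/- label. Cd14 (chr18:36884728-36886390, NCBIM37) fell by 5.09 on the log2 scale (SE 0.40, adjusted p = 0.00134 from limma), to 2.55% of WT (1.31 to 4.50).

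The lysosomal and effector genes divided. Lyz2, which encodes the lysozyme of macrophages, had 1364 and 2224 normalized counts in WT and 5.87 and 6.64 in the libraries with the Taf4a-/- label, 6 reads in each. The log2 fold change was -7.91 (SE 0.31, adjusted p = 0.000391 from limma) and 0.355% was left (0.183 to 0.620). Of the 50-base stretches of its transcript, 15.4% are shared with the neighbouring lysozyme gene Lyz1, which was listed at 0 and 7.27 in WT and at 0 and 2.21 in the libraries with the Taf4a-/- label.

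Cybb, the electron-carrying subunit of the oxidase that makes superoxide, had 453 and 762 normalized counts in WT and 0.979 and 4.42 in the libraries with the Taf4a-/- label, 1 and 4 reads. Its log2 fold change was -7.49 (SE 0.56, adjusted p = 0.00125 from limma), and moved to -6.76 without the replicate 1 and to -8.22 without the replicate 2 of that label. Cybb kept 0.437% of its WT level (0.142 to 1.02).

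Cd68, a heavily glycosylated membrane protein of late endosomes and lysosomes, kept far more. It had 808 and 1169 normalized counts in WT and 141 and 121 in the libraries with the Taf4a-/- label. The log2 fold change was -2.89 (SE 0.23, adjusted p = 0.00134 from limma), and 13.5% of the WT level was left (11.8 to 15.4). The counting intervals of Cd68 and Fcgr2b overlapped each other and lay above those of the other 8 genes, whose upper bounds reached 4.50% at most. In the order of all falls Cd68 ranked 551 and Fcgr2b 607, whereas the other 8 ranked between 6 and 146.

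**Figure D2:**
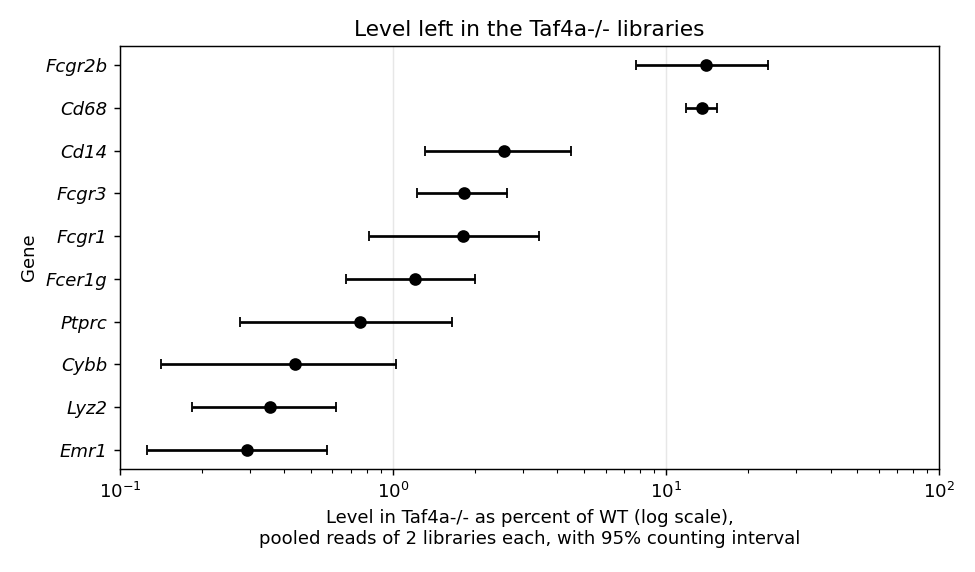
Level of each gene in the libraries with the Taf4a-/- label as percent of WT (log axis), from pooled reads of 2 libraries per genotype. Bars are 95% counting intervals, which do not include the spread between libraries. Fcgr2b at 14.0% and Cd68 at 13.5% lie apart from the other 8 genes, which run from 0.291% for Emr1 to 2.55% for Cd14.

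The makeup of the set therefore differed between the genotypes. In WT, Emr1 and Lyz2 together with Cd68 led the sum of normalized counts, which are not corrected for gene length, with 23.5% and 16.5% from Emr1, 22.2% and 26.1% from Lyz2, and 13.1% and 13.7% from Cd68. In the libraries with the Taf4a-/- label Cd68 alone made up 76.2% and 61.6% of the sum. Without Cd68 the sums were 5344 and 7347 in WT and 44.1 and 75.2 in the libraries with the Taf4a-/- label, or 0.940% of WT.

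**Figure D3:**
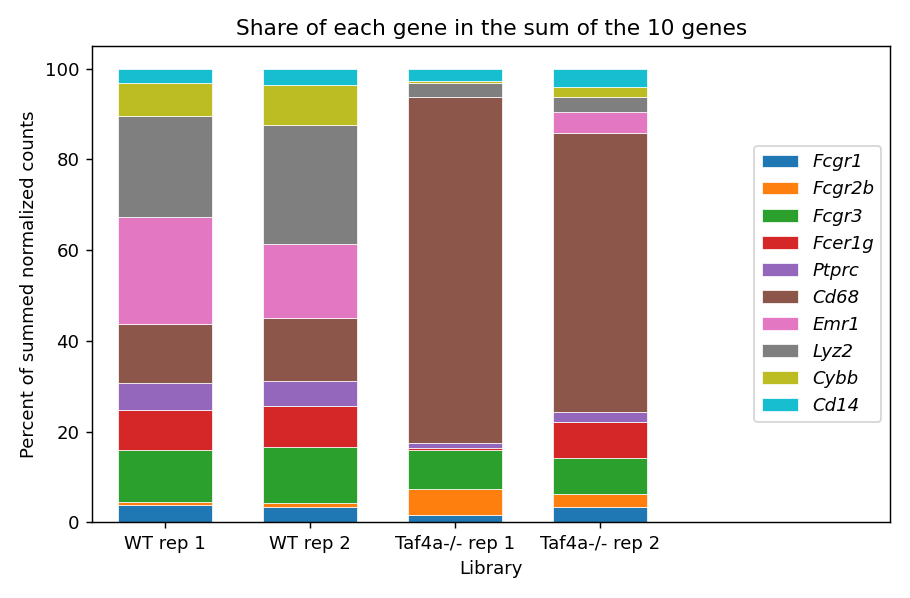
Share of each gene in the summed normalized counts of the 10 genes, in percent, for each of the 4 libraries. Cd68 takes 13.1% and 13.7% of the WT bars and 76.2% and 61.6% of the Taf4a-/- bars.

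For most of the set, the libraries of one genotype differed in a shared direction. WT replicate 2 was above WT replicate 1 for 9 of the 10 genes, all but Emr1, with a median log2 difference of 0.56, beside 0.02 over all genes tested. The gap was largest for Fcgr2b (1.78-fold), Cybb (1.68-fold) and Lyz2 (1.63-fold). Between the libraries with the Taf4a-/- label, replicate 2 was above replicate 1 for 7 of the 10 genes, with a median log2 difference of 0.72, beside 0.003 over all genes tested, but at these levels the difference was a few reads for most genes.

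Levels of different genes were compared per kilobase (kb) of merged exons. In WT the order per kb was Lyz2 (1366 ± 463 normalized counts per kb, SD, n = 2), Fcer1g (822 ± 188), Cd68 (786 ± 203), Fcgr3 (500.0 ± 140.3), Emr1 (439 ± 9.94), Cd14 (158 ± 47.6), Cybb (105 ± 37.5), Fcgr1 (100.4 ± 15.9), Ptprc (72.0 ± 15.2) and Fcgr2b (15.8 ± 6.26). The ranges of neighbours overlapped between Fcer1g and Cd68, between Fcgr3 and Emr1, between Cd14 and Cybb, and between Cybb and Fcgr1. These pairs were not separated beyond the spread of the libraries. The common gamma chain gene was thus above each of the 3 receptor genes per kb in WT. In the libraries with the Taf4a-/- label Cd68 led with 104 ± 11.5 normalized counts per kb (SD, n = 2), followed by Fcer1g (10.3 ± 12.8) and Fcgr3 (8.94 ± 0.07), and the remaining 7 lay between 0.465 and 4.76. In that group the ranges of Fcer1g and Fcgr3 overlapped, and so did most neighbours below them.

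In the NCBIM37 (mm9) annotation the 10 genes lie on 7 chromosomes, and none overlaps another annotated gene. Fcgr2b (chr1:172890689-172906678), Fcgr3 (chr1:172981300-172995066) and Fcer1g (chr1:173159703-173164496) lie close together on the minus strand of chromosome 1, where Ptprc (chr1:139959438-140071882) is also found. These neighbours differed in what was left, as Fcgr2b kept 14.0% of its WT level, Fcgr3 1.82% and Fcer1g 1.20% (0.670 to 1.99). The others, beside Cd14, are Fcgr1 (chr3:96086832-96098179), Lyz2 (chr10:116714390-116719377), Cd68 (chr11:69477715-69479655), Emr1 (chr17:57498109-57622952) and Cybb (chrX:9012378-9064897). All values are over the whole gene, exons and UTRs together.

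Because the genes moved together, the promoter windows that RefSeq gives in the newer build GRCm38.p6 were read, from 250 bases before to 50 bases after each start. Windows were given for 8 of the 10 genes, 10 windows in all, with none for Emr1 and Cd14. On both strands, 5 motifs were searched: GAGGAA, the core of the site of the myeloid factor PU.1, GAGGAAGT, which contains it, the TATA box (TATAAA), the E-box (CACGTG) and the GC box (GGGCGG). The PU.1 core GAGGAA was found in 6 windows of 5 genes (Fcgr1, Fcgr3, Ptprc, Cd68 and Cybb), and in 28.3% of all 32851 windows in the table. These windows are not all independent, as the Fcgr3 windows starting at 171059345 and 171059354 hold the same site. Ptprc has the core at chr1:138175256-138175555 but not in its overlapping window at chr1:138175077-138175376. TATAAA was found for Ptprc (13.6% of all windows) and GGGCGG for Cd68 (35.7%), whereas GAGGAAGT (3.20%) and CACGTG (7.15%) were in none of the 10 windows. The windows below are of a receptor gene, the gene with the most left in reads, a gene with under 1% left, and Lyz2, the highest gene per kb in WT, which holds none of the 5 motifs. They are on the minus strand, at chr3:96293920-96294219 (Fcgr1), chr11:69666121-69666420 (Cd68), chrX:9469275-9469574 (Cybb) and chr10:117282223-117282522 (Lyz2), and capitals mark GAGGAA or its reverse complement TTCCTC.
Fcgr1: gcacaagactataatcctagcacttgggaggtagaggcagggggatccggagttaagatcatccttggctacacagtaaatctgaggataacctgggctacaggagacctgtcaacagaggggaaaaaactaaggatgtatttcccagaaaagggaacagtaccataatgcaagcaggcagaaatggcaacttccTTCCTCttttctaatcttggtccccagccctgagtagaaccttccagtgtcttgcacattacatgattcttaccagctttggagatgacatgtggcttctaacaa
Cd68: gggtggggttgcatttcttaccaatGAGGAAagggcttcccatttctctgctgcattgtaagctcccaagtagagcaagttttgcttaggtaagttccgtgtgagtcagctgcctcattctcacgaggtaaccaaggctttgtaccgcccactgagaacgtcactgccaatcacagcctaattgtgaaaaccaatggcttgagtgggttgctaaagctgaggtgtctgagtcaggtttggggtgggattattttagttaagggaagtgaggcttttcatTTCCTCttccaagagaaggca
Cybb: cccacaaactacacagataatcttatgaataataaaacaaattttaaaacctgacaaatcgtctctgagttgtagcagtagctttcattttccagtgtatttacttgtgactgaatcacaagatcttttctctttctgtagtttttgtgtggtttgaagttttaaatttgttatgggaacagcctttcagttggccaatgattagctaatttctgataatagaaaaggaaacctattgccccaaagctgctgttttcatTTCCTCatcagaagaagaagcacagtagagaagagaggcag
Lyz2: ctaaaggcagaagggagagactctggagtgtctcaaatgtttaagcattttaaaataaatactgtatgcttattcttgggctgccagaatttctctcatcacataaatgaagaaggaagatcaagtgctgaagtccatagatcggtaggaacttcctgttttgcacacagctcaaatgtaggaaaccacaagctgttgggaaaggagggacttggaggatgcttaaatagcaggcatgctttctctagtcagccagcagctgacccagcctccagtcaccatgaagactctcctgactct
With the core, the percent of WT left was 13.5% (Cd68, both strands), 1.82% (Fcgr3), 1.797% (Fcgr1), 0.754% (Ptprc, not in every window) and 0.437% (Cybb). Without it, the percent left was 14.0% (Fcgr2b), 1.20% (Fcer1g) and 0.355% (Lyz2). The gene of PU.1, listed as Sfpi1, had 324 and 343 normalized counts in WT and 2.94 and 14.4 in the libraries with the Taf4a-/- label, a log2 fold change of -5.43 (SE 0.64, adjusted p = 0.00378 from limma). Its part in the levels of the 10 genes was not tested.

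Of the other Fc receptors and Fc-binding genes, 4 of 11 in the table were tested and 3 were lower. Fcgr4, an activating IgG receptor gene that also lies among the Fc receptor genes, had 85.0 and 97.7 normalized counts in WT and no read in either library with the Taf4a-/- label, which makes it at least 58.3-fold lower (3 reads over the group). Fcgrt, the neonatal receptor that carries IgG through cells and the highest of this list by normalized count (as for each list below), went from 1121 and 1741 to 87.1 and 104, a log2 fold change of -3.86 (SE 0.25). Fcrls, an Fc receptor-like scavenger receptor gene, went from 1068 and 1364 normalized counts to 0 and 3.32. Trim21, which binds antibody in the cytosol, did not pass, with 234 and 229 normalized counts in WT and 203 and 138 in the libraries with the Taf4a-/- label. The median log2 fold change of the 4 tested genes was -5.19, or -4.86 with Fcgr4 at its bound.

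Genes that relay the signal of ITAM and ITIM receptors were lower for 11 of 15 tested, and the median log2 fold change was -1.499. The second ITAM adaptor gene of macrophages, Tyrobp (DAP12), had 499 and 765 normalized counts in WT and 0 and 6.64 in the libraries with the Taf4a-/- label, a log2 fold change of -7.81 (SE 0.91). The haematopoietic signalling genes Vav1 (-4.65), Lcp2 (-4.51), Btk (-4.09), Pik3ap1 (-3.81) and Pik3r5 (-2.75) were lower as well. The kinases Syk, listed as Sykb, and Lyn fell less, with log2 fold changes of -1.07 and -1.29, as did Blnk (-1.499) and the ITIM-binding phosphatase Inpp5d (-0.72). Plcg2, the highest of the list, had 536 and 419 normalized counts in WT and 608 and 559 in the libraries with the Taf4a-/- label (log2 fold change 0.30, adjusted p = 0.248 from limma), and Ptpn6, Pik3cd and Fgr did not pass either. The count of lower genes in this list was 7 when WT replicate 1 was left out and 5 when WT replicate 2 was.

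The partners of Cybb in the NADPH oxidase were lower for 5 of 8 tested (median log2 fold change -2.15). The cytosolic subunits Ncf4 (-5.60) and Ncf1 (-5.47) and the GTPase Rac2 (-5.16), used in blood cells, fell most. The membrane partner Cyba, which other NADPH oxidases also use, went from 1051 and 1092 to 564 and 366 normalized counts (-1.24, SE 0.22). The widely expressed Rac1, the highest of the list, had 7715 and 7631 normalized counts in WT and 6055 and 6541 in the libraries with the Taf4a-/- label and did not pass (adjusted p = 0.112 from limma). Hvcn1 and Rap1a did not pass. Nox4, a catalytic subunit of the same family as Cybb, had 168 and 164 normalized counts in WT and 190 and 168 in the libraries with the Taf4a-/- label, and the other 3 of that family in the table were too low to test. Its log2 fold change was 0.10 (SE 0.21, adjusted p = 0.737 from limma).

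Of the 6 genes in the list set beside Cd14, of receptors and of proteins that act with them, 5 were lower (median -3.09). The log2 fold changes were -5.91 for Cd180, -3.98 for Tlr4, -2.20 for Tlr2, the highest of the list, and -1.09 for Lbp. Ly86, the partner of Cd180, had 98.2 and 147 normalized counts in WT and no read in the libraries with the Taf4a-/- label, at least 77.2-fold lower. Ly96, which pairs with Tlr4, had 47.3 and 61.3 against 20.6 and 48.7 normalized counts and did not pass (adjusted p = 0.282 from limma).

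All 14 tested genes of phagocytic receptors and integrins were lower, of 17 in the table, with a median log2 fold change of -4.11. The complement receptor genes C3ar1 (-6.96), C5ar1 (-6.82) and Itgam (-6.25) and the lectin Clec7a (-6.38) fell most beside the scavenger receptor Msr1, which had 159 and 255 normalized counts in WT and no read in the libraries with the Taf4a-/- label, at least 130-fold lower. Siglec1 (-5.78), Mrc1 (-4.17), Itgb2 (-4.05), Itgax (-3.88) and Cd36 (-3.45) followed. Axl, a receptor for dying cells and the highest of the list, kept more, with 5650 and 8649 normalized counts in WT and 2503 and 3001 in the libraries with the Taf4a-/- label (-1.35, SE 0.22), and Mertk (-1.83), Itgal (-1.98) and Stab1 (-2.05) were near it.

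Of 11 tested genes of Cd45 partners and the leukocyte cytoskeleton, 9 were lower (median -3.51). The surface glycoproteins Cd53 (-6.85) and Cd52 (-6.46) fell most, followed by Dock2 (-4.33), Coro1a (-3.67), Laptm5 (-3.60), Nckap1l (-3.51), Lcp1 (-2.67), Arhgdib (-1.82) and Fermt3 (-1.60). Lcp1, which bundles actin in leukocytes and was the highest of the list, had 2324 and 2450 normalized counts in WT and 305 and 456 in the libraries with the Taf4a-/- label. Was (114.8 and 113 against 18.6 and 87.4 normalized counts) and Cd37 (49.97 and 89.4 against 54.8 and 75.2) did not pass.

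Family relatives of Cd68, Ptprc and Emr1 were read as well, and those tested changed less than these genes. Of the lysosomal Lamp family, to which Cd68 is related, 0 of 3 tested genes passed in limma, and 1 had an unadjusted p under 0.05, while 1 passed without WT replicate 1. Lamp1 had 12753 and 14114 normalized counts in WT and 12386 and 12182 in the libraries with the Taf4a-/- label (-0.13, SE 0.13, adjusted p = 0.480 from limma), while Lamp2 was at -0.72 (SE 0.24, adjusted p = 0.0706). Of 14 receptor tyrosine phosphatases other than Ptprc, 3 were lower (Ptpro -3.71, Ptprt -1.32 and Ptprj -0.67), with a median of -0.30, and the count was 1 without replicate 1 of the Taf4a-/- label. Ptprf, the highest of them, did not pass (-0.30, SE 0.14). Cd97, which is of the same adhesion receptor family as Emr1, had 893 and 975 normalized counts in WT and 603 and 831 in the libraries with the Taf4a-/- label (-0.40, SE 0.19, adjusted p = 0.155 from limma), and none of the 4 lysozyme relatives of Lyz2 in the table was high enough to test.

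Markers of the cells that could carry these genes were read from the same fit. Of 14 macrophage lineage genes 13 were lower, and the median log2 fold change was -5.66. Their sum was 13726 and 15501 normalized counts in WT and 1300.0 and 1373 in the libraries with the Taf4a-/- label. Csf1r, the receptor for the macrophage growth factor and the highest of the list, had 2825 and 3159 normalized counts in WT and 36.2 and 47.6 in the libraries with the Taf4a-/- label (-6.13, SE 0.20, adjusted p = 0.000286 from limma). C1qa had no read in either library with the Taf4a-/- label, at least 466-fold lower. The part of macrophage number in the levels of the 10 genes was not tested.

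Other blood lineages moved less or were near the limit of detection. The sum of 8 T and NK cell markers was 139 and 121 normalized counts in WT and 166 and 156 in the libraries with the Taf4a-/- label, almost all of it from Lck, Cd3e was at 0 in both WT libraries, and 0 of 2 tested passed in limma, also at an unadjusted p under 0.05. The sum of 5 B cell markers was 43.8 and 23.9 against 19.6 and 25.4, with 1 tested gene, Cd79b, lower (-1.93), a call that was lost when any 1 library was left out. Among neutrophil markers (sums 104 and 126 in WT, 153 and 155 in the libraries with the Taf4a-/- label) Csf3r was lower (-4.72) and Prtn3 higher (1.94), with S100a8 and S100a9 at 0 in both libraries with the Taf4a-/- label and at 0 and 1.04 in WT. Among mast cell and basophil markers (sums 2321 and 2773 against 1994 and 1823, nearly all from Kit) Hdc was lower (-1.89), a call that was lost without WT replicate 2 and without either library with the Taf4a-/- label.

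**Figure D4:**
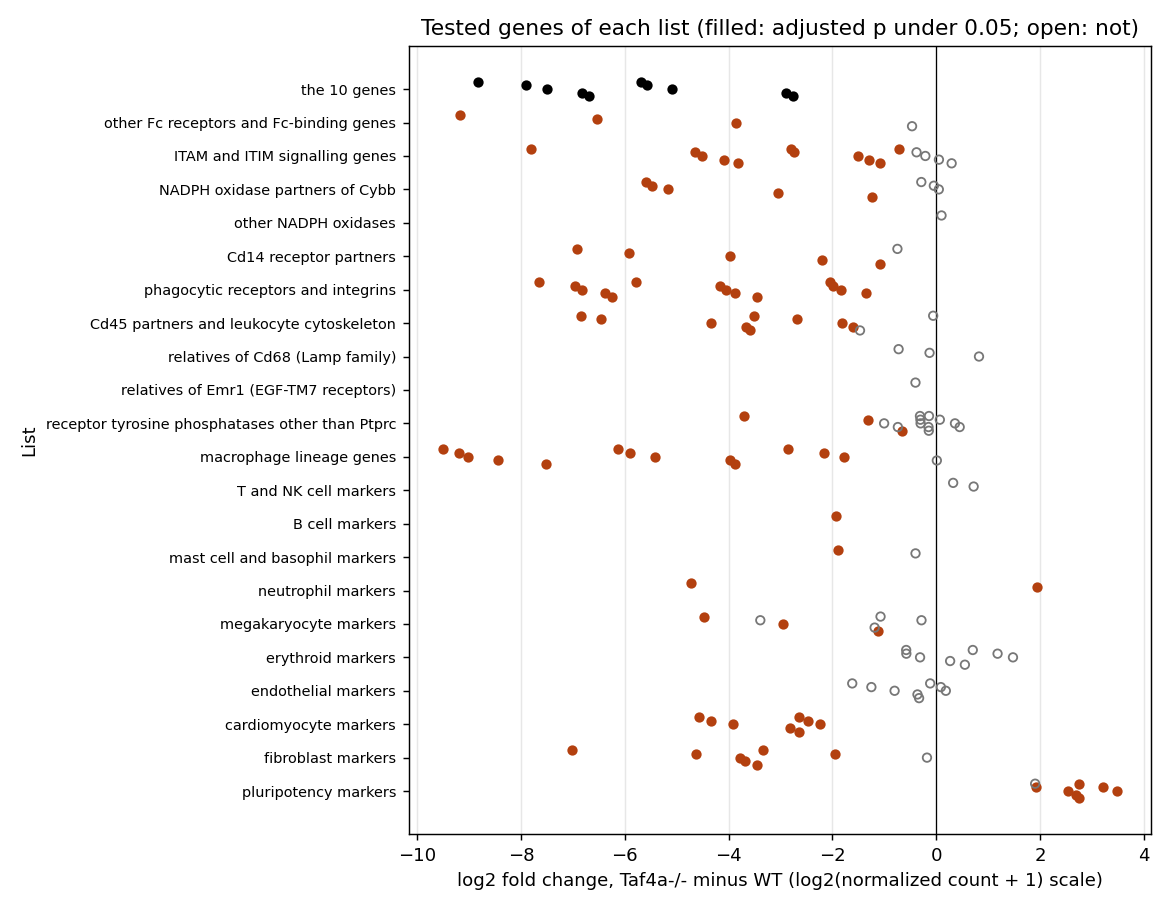
Log2 fold change, Taf4a-/- minus WT, of each tested gene in the lists (1 point per gene, 1 row per list; filled points had an adjusted p under 0.05 in limma, open points did not; genes without a read in Taf4a-/- are drawn at their fitted value). All 10 points of the top row lie between -8.83 and -2.76, near the row of macrophage lineage genes, whose median was -5.66, whereas the 8 erythroid genes lie on both sides of 0.

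Of the megakaryocyte markers, 7 were tested and 3 were lower, or 5 without replicate 2 of the Taf4a-/- label (sums 2618 and 2528 in WT, 913 and 1113 in the libraries with the Taf4a-/- label). The 8 erythroid markers did not separate the genotypes, with sums of 4988 and 2158 in WT and 2626 and 15935 in the libraries with the Taf4a-/- label, and 0 passed in limma, also at an unadjusted p under 0.05. Of 8 endothelial markers 0 passed, and 3 had an unadjusted p under 0.05, with sums of 16051 and 14657 against 11055 and 13563, and 3 passed without replicate 2 of the Taf4a-/- label. The 8 fibroblast markers, of which 7 were lower, summed to 429319 and 596621 normalized counts in WT and to 48130.3 and 60341 in the libraries with the Taf4a-/- label, and WT replicate 2 was the higher WT library here too. The 8 cardiomyocyte markers summed to 27832 and 25274 in WT and to 2982 and 2615 in the libraries with the Taf4a-/- label, and the 8 pluripotency markers to 5193 and 1787 in WT and to 16152 and 18521. The part of these other cells in the levels of the 10 genes was not tested.

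The genes most like the 10 in profile were found from the root mean square difference, over the 4 libraries, between a gene's centred log2 values and the median of the 10 genes. The 5 nearest were Itgam (0.0881), Cd180 (0.131), Clec4a1 (0.161), Ms4a6d (0.177) and Fyb (0.241). Itgam, a chain of complement receptor 3, had 422 and 591 normalized counts in WT and 3.92 and 7.74 in the libraries with the Taf4a-/- label. Among the 10 themselves Ptprc (0.281) and Fcgr1 (0.292) were nearest to this median, and Emr1 (1.58), Cd68 (1.68) and Fcgr2b (1.82) farthest. Cd68 and Fcgr2b had shallower falls. Emr1 was above the median in WT (centred values 4.44 and 4.39 against 2.88 and 3.35). Its largest gap was in replicate 1 of the Taf4a-/- label, where it had no read (-6.06 against -3.53). In replicate 2 of that label it was near the median (-2.76 against -2.54).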

How the data were processed

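Per the submitters' processing notes, the authors used CASAVA 1.8, mapped reads to mm9 with TopHat 1.3.3, counted them with HTSeq 0.5.3p1 and normalized the counts with DESeq, whereas the study's methods name DESeq 2 for the normalization. How reads that map to several places were treated, and the annotation release, are not given in the sources used here. The deposited values are normalized counts, written with decimal commas. The reads behind them were recovered, and 100% came out whole within 0.01 read. The kit does not keep the strand.

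Values were tested on log2(normalized count + 1), a scale that understates the change of low genes, for genes with a mean of at least 10, with limma 3.58.1 in R 4.3.3 (eBayes with a variance trend, 4.17 prior degrees of freedom, Benjamini-Hochberg over 16926 genes, called under 0.05). With 2 libraries against 2, an exact permutation test cannot go under 0.333, so the test rests on a spread shared across genes. The study's methods name 2 biological replicates and 2 independent lines per genotype. The labels do not say which line each library came from. In simulated reads with 200 changed genes and a dispersion of 0.0106, set the same for all genes, 97.0% of 4-fold and 100% of 8-fold changes were called. Several of the 10 genes spread more widely than that. Between the WT libraries these included Lyz2 (1364 and 2224 normalized counts) and Cybb (453 and 762). Between the libraries with the Taf4a-/- label they included Fcer1g (1 and 14 reads) and Emr1 (0 and 8 reads). Recovery at such a spread was not tested. Percent left and its 95% interval (exact binomial on pooled reads) cover counting error only. Gene positions and merged exon lengths come from the NCBIM37 annotation, which holds all 24637 identifiers; the symbols Syk, Spi1 and Lamp5 were found as Sykb, Sfpi1 and 6330527O06Rik.

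The members and lists were chosen with earlier results of these data known. Besides the 10 genes, those named are the called genes of the fixed lists, the highest gene of each list and those beside it, Taf4a, and the 5 nearest in profile; some list genes are not reported here by name. Proteins were not analysed here. Figures were drawn with matplotlib 3.10.9.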

Additional observations from a re-analysis of the deposited data

How the results depend on the processing

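The 10 genes kept a negative log2 fold change under every alternative run. Of them 10 were lower with a pseudocount of 0.5 or 10, without a filter, with equal totals, quantile normalization, no variance trend, limma-voom on recovered reads, and the replicate block. At a mean of at least 50, 9 were lower, since Fcgr2b left the test, and at an adjusted p under 0.01, 9 were, without Fcgr2b. Leaving out 1 library gave 7 to 10, the 7 without WT replicate 2, where a group is 1 library that is assumed to vary like the others. The median of the 10 ran from -6.59 without Taf4a-/- replicate 2 to -5.04 with a pseudocount of 10, and that of the 9 genes left at a mean of at least 50 was -6.69. The replicate block gave 10 lower of the 10 genes and changed no call among them, while in the lists it called 1 Lamp family gene and none of the B cell or mast cell markers, where 0, 1 and 1 were called without it; over all genes it gave 2657 lower and 1536 higher, and deviations of same-numbered libraries correlated at 0.01 across genes, so the numbers were not taken as pairs. Over all genes, 2928 were lower and 1906 higher, with 1741 and 856 without a variance trend, 1119 and 331 at an adjusted p under 0.01, and 1222 to 3038 and 624 to 2476 when 1 library was left out. The causes were not tested. Quantile normalization moved the median of all genes from -0.01 to 0.11 and the share of higher genes among calls from 39.4% to 52.2%, beside a median of -5.83 for the 10 genes. Of 77 tested genes in the pathway lists 50 were lower and 0 higher, and of 68 in the marker lists 34 were lower and 8 higher. Under the alternatives that kept all 4 libraries, the lower genes numbered 40 to 51 and 30 to 35. The share of all genes that was lower ran from 6.61% to 17.7% under these alternatives, beside 17.3% in the main fit. The edgeR, DESeq2 and TMM alternatives were not run. At this depth, 5 of the 10 genes had 3 reads or fewer in a library labelled Taf4a-/-, so differences among their low levels were not detectable.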
